A study of Bos taurus with 129 samples.

Results

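Peripheral blood mononuclear cells (PBMC) of non-pregnant cows were set against endometrium and corpus luteum of non-pregnant cows of the same experiment, to find the genes that were highest in bovine blood mononuclear cells and the genes that were lowest there. The members were the 21 RNA-Seq libraries of non-pregnant cows of the second experiment (E2), 7 of PBMC, 7 of endometrium and 7 of corpus luteum, which are 16.3% of the samples of the series. The series compared conceptuses and maternal tissues of lactating Holstein-Friesian cows at day 16 in pregnancies with embryo mortality (EM), normal pregnancies (N) and non-pregnant cows (NP). An earlier experiment (E1) was sequenced with 100 bp paired-end reads and E2 with 75 bp single-end reads, both from messenger RNA libraries. All 21 libraries carry the labels Non-Pregnant and day 16, and differ in the labels only by tissue. Neither the isolation of the PBMC, the part of the uterine wall sampled nor the cow behind each library is given in the sources used here. The p-values therefore measure the spread between libraries.

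PBMC are the nucleated blood cells that remain once granulocytes and red cells are removed: B cells, T cells, natural killer cells, monocytes and a few dendritic cells. Cattle are known for large numbers of gamma delta T cells in blood, many of which carry the scavenger receptors of the WC1 family on their surface. Endometrium is the lining of the uterus, built of epithelium, glands, stroma and vessels. The corpus luteum is the ovarian gland that makes progesterone, and its large and small luteal cells are filled with steroid-making enzymes.

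Total counts ranged from 11147738 to 18285148 in PBMC libraries, from 12779997 to 15182346 in endometrium and from 17120736 to 20784434 in corpus luteum. A principal component that held 68.21% of the variance separated all PBMC libraries from all others. The PBMC label held in all 7 libraries: the leukocyte gene PTPRC (CD45) had 1727 to 2364 CPM (counts scaled to a common library size with TMM factors), while the collagen gene COL1A1 had at most 1.59 CPM. The library labelled corpus luteum S109 went against its label. STAR, the protein that carries cholesterol into mitochondria for steroid synthesis, had 138.9 CPM there, against 11836 to 15577 CPM in the other 6 corpus luteum libraries, and DES, the desmin of muscle cells, had 1073 CPM, against 1.97 to 62.2 CPM. Endometrium S69 also stood apart, with 7.51% of counts on mitochondrial genes, 3535 CPM of the smooth muscle myosin MYH11 and 10929.5 CPM of COL1A1. The median correlation with libraries of the same tissue was 0.893 for corpus luteum S109 and 0.903 for endometrium S69, against 0.947 to 0.978 for the other libraries. Both were kept, and counts of genes are also given without them.

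In all, 18716 genes passed the filter on low counts. In edgeR's quasi-likelihood test a gene was called below a Benjamini-Hochberg adjusted p of 0.05. It was called higher or lower than both tissues when it passed in both contrasts in the same direction. Relative to endometrium, PBMC were higher for 6372 genes (34% of those tested) and lower for 7550 (40.3%). Relative to corpus luteum, PBMC were higher for 6713 genes (35.9%) and lower for 7902 (42.2%). At any fold, 26.2% of the genes tested were higher in PBMC than in both tissues and 31.8% were lower. At least 4-fold differences from both tissues were found for 1611 genes that were higher in PBMC (8.61%) and for 3405 genes that were lower (18.2%). Without corpus luteum S109 and endometrium S69 these counts were 1674 and 3261. Among the 1611 higher genes, 586 were at least 16-fold higher than both tissues by the fitted fold change. Every PBMC library lay above all 14 libraries of the other tissues for 1443 of the 1611 genes, and for 16.4% of all genes tested. At the limit of 4-fold, MCTP1 was just inside with log2 fold changes of 2.00 against endometrium and 2.10 against corpus luteum, and TFEB was just outside with 1.99 and 2.80. In these bulk tissues a larger number of cells of a type and more RNA per cell cannot be told apart.

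**Figure D1:**
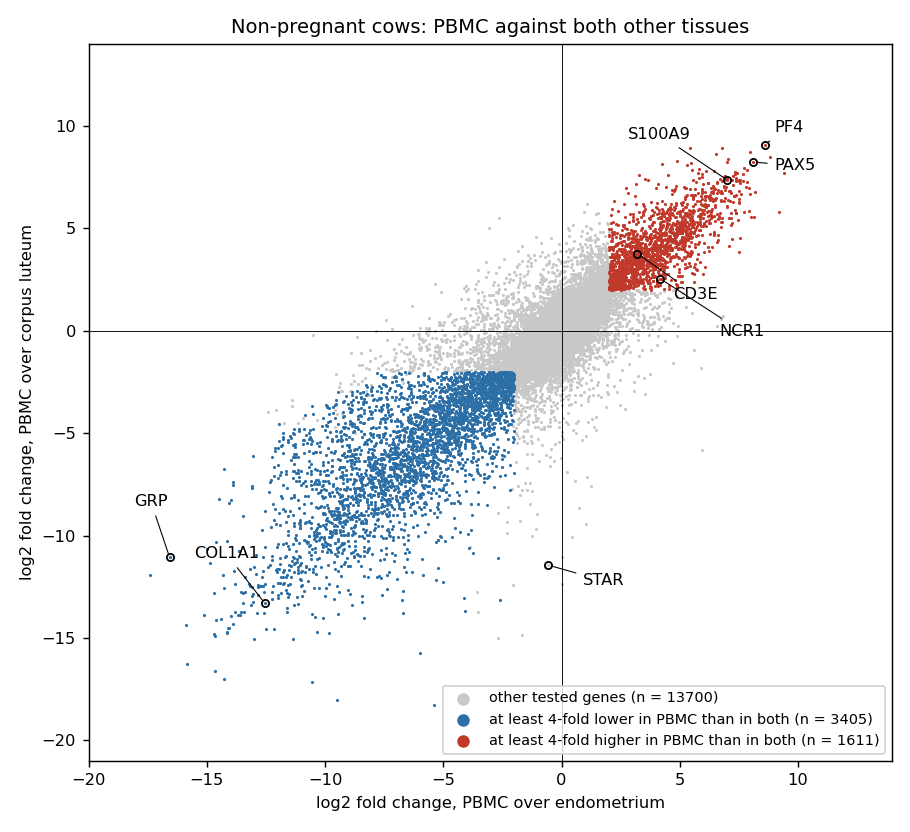
Log2 fold change of PBMC over endometrium (horizontal axis) and of PBMC over corpus luteum (vertical axis) for the 18716 genes tested in non-pregnant cows. Red points are the 1611 genes at least 4-fold higher in PBMC than in both tissues, blue points the 3405 genes at least 4-fold lower; STAR lies near 0 on the horizontal axis and far below 0 on the vertical axis.

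Of 27 listed B cell genes 26 were in the table, and all 26 passed the filter. Of these, 23 were higher in PBMC than in both tissues (against 26.2% of all genes), 21 of them at least 4-fold, and none was lower. The median log2 fold change of the list was 5.97 against endometrium and 6.45 against corpus luteum, beside -0.09 and -0.12 over all genes tested. Of the 15 genes named as highest, 9 are known from B cells. These 15 were picked among called genes with no overlap between PBMC and the other libraries. Their lack of overlap and small p-values therefore follow from that choice. MS4A1 (CD20), a surface protein of B cells, had 586 to 1600 CPM in PBMC (median 1107), against 0.348 to 24 CPM in endometrium and 0.699 to 35.4 CPM in corpus luteum. The groups did not overlap, and the highest corpus luteum value was that of S109. Its log2 fold change was 7.51 ± 1.09 (SE) against endometrium (adjusted p = 2.48e-06) and 7.36 ± 1.08 against corpus luteum (adjusted p = 2.82e-06), and 7.37 and 9.14 without corpus luteum S109 and endometrium S69. Without endometrium S65, the highest endometrium library, it was 8.48 against endometrium.

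PAX5, the transcription factor that holds cells in the B lineage, had 292 to 646 CPM in PBMC (median 513), against 0 to 5.603 CPM in endometrium and 0.127 to 7.56 CPM in corpus luteum (log2 fold changes 8.11 ± 0.91 and 8.24 ± 0.92). Without corpus luteum S109 and endometrium S69 these were 8.01 and 9.75, and without endometrium S65 that of PAX5 against endometrium was 8.80. Leaving out S109 and S69 raised the log2 fold change against corpus luteum for all 9 B cell genes named as highest, to 7.99 for FCRL5 and up to 9.75 for PAX5. CD79A and CD79B, the signalling chains of the B cell receptor, averaged 390 ± 103.1 and 401 ± 145 CPM in PBMC (SD, n = 7), against at most 11.7 CPM in any other library. CD22, an inhibitory receptor of B cells, had 469 to 1151 CPM in PBMC, against 0.591 to 16.4 CPM in endometrium and 0.605 to 23.2 CPM in corpus luteum. SPIB, a transcription factor of B cells and plasmacytoid dendritic cells, averaged 502 ± 166 CPM in PBMC, against 2.17 ± 2.92 CPM in endometrium and 3.22 ± 4.91 CPM in corpus luteum. The Fc receptor-like genes of B cells stood among the highest too: FCRL3, FCRL5 and FCRL1 had median levels of 83.5, 244 and 110 CPM in PBMC, and at most 4.82 CPM in any library of the other tissues. Outside the B cell genes, the highest included GPR15, a receptor that guides lymphocytes to the gut, with 8.30 to 34.2 CPM in PBMC and at most 0.280 CPM elsewhere. ITGAD, an integrin of leukocytes, and LGALS12, a galectin, had 25.3 to 107.4 and 35.2 to 59.1 CPM in PBMC and at most 1.53 CPM in any other library.

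Antibody genes did not move together. IGHM, the heavy chain of IgM, had 398 to 1055 CPM in PBMC, against 2.73 to 22.1 CPM in endometrium and 2.66 to 33.1 CPM in corpus luteum. IGHE, the heavy chain of IgE, averaged 68.7 ± 24.5 CPM in PBMC, against 0.416 ± 0.342 CPM in endometrium and 0.303 ± 0.518 CPM in corpus luteum. JCHAIN, which joins secreted IgA and IgM and is abundant in plasma cells, had 136 to 401 CPM in PBMC, against 45.7 to 310 CPM in endometrium and 4.59 to 36.97 CPM in corpus luteum. PBMC and endometrium overlapped for JCHAIN (log2 fold change 0.38 ± 0.50, adjusted p = 0.500), while PBMC lay above all corpus luteum libraries (3.95 ± 0.57, adjusted p = 1.98e-06). Reads of antibody genes can be shared between similar segments, so their counts are uncertain.

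Of 30 listed T cell genes, 28 were higher in PBMC than in both tissues (against 26.2% of all genes), 27 at least 4-fold. The median log2 fold changes were 3.16 against endometrium and 3.89 against corpus luteum. CD3E, a chain of the T cell receptor complex, had 78.7 to 255 CPM in PBMC (median 134), against 6.10 to 32.2 CPM in endometrium and 3.24 to 16.3 CPM in corpus luteum. All PBMC libraries were above all others (log2 fold changes 3.20 ± 0.39 and 3.77 ± 0.40, adjusted p = 2.20e-07 and 2.92e-08). TBX21, the factor known as T-bet that drives type 1 responses in T and natural killer cells, had the largest difference in the list, with 82.2 to 194 CPM in PBMC, against 0.561 to 3.25 CPM in endometrium and 1.59 to 4.14 CPM in corpus luteum. CD5, a surface receptor of T cells and some B cells, averaged 104.8 ± 14.4 CPM in PBMC, against 4.15 ± 2.997 CPM in endometrium and 3.33 ± 1.70 CPM in corpus luteum. CD28, the costimulatory receptor, and THEMIS, a signalling protein of T cells, had 20.7 ± 9.74 and 14.4 ± 4.64 CPM in PBMC and at most 2.24 CPM in every other library. FOXP3, the factor of regulatory T cells, did not pass the test, with 2.02 to 5.67 CPM in PBMC, 1.33 to 4.23 CPM in endometrium and 1.89 to 5.51 CPM in corpus luteum.

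Of 19 listed genes of gamma delta T cells and the WC1 family, 11 were in the table and 10 passed the filter. PBMC were higher than both tissues for 8 of these 10 and lower for the other 2 (against 26.2% and 31.8% of all genes). Without corpus luteum S109 and endometrium S69 the counts were 7 and 1. WC1.3 had 4.11 to 49.5 CPM in PBMC (median 31.7), against 0.118 to 2.39 CPM in endometrium and 0.127 to 0.610 CPM in corpus luteum. The groups did not overlap (log2 fold changes 4.84 ± 0.68 and 6.22 ± 0.74, adjusted p = 1.61e-06 and 1.64e-07), but the PBMC libraries spread widely. WC1 itself had 1.06 to 10.5 CPM in PBMC and at most 0.413 CPM elsewhere, and WC1-8, which did not pass the filter, had 0 to 5.06 CPM in PBMC and at most 0.174 CPM elsewhere. WC1-12 had 1.54 to 27.5 CPM in PBMC, against 0.351 to 3.72 CPM in endometrium and 0.191 to 0.781 CPM in corpus luteum, so its lowest PBMC libraries overlapped with endometrium. CD163L1, a scavenger receptor of the same family, had 4.56 to 90.8 CPM in PBMC and at most 1.48 CPM elsewhere.

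The receptor constant genes TRGC3, TRGC4 and TRGC6 were higher in PBMC than in both tissues. TRGC3 had 8.45 to 29.6 CPM in PBMC, against 0.631 to 5.96 CPM in endometrium and 0.127 to 3.66 CPM in corpus luteum. TRGC4 had 4.34 to 14.99 CPM in PBMC, against 0.982 to 3.59 CPM in endometrium and 0.699 to 15.6 CPM in corpus luteum, where S118 lay above every PBMC library. Its call against corpus luteum (adjusted p = 0.0440, log2 fold change 1.26, and 2.04 without corpus luteum S118) was lost without corpus luteum S109 and endometrium S69 (adjusted p = 0.0760). The 2 genes that were lower are transcription factors that gamma delta and innate-like T cells share with other tissues. SOX13 had 4.19 to 53.8 CPM in PBMC, against 74.7 to 147 CPM in endometrium and 27.1 to 108.6 CPM in corpus luteum. ZBTB16, which is also induced by progesterone in uterine stroma, had 3.29 to 15.8 CPM in PBMC, against 128.3 to 328 CPM in endometrium and 4.52 to 40.3 CPM in corpus luteum, and its call against corpus luteum was lost without S109. Members of the WC1 family are near-identical in places, so reads can be split between them.

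Of 24 tested genes of natural killer and cytotoxic cells, 21 were higher in PBMC than in both tissues (against 26.2% of all genes). Of these 21, 15 were at least 4-fold higher, and none of the 24 was lower. NCR1, the receptor NKp46 that marks natural killer cells, had 9.57 to 27.02 CPM in PBMC, against 0.210 to 1.97 CPM in endometrium and 1.28 to 4.34 CPM in corpus luteum. The difference was larger against endometrium (log2 fold change 4.17 ± 0.40, adjusted p = 7.12e-09) than against corpus luteum (2.54 ± 0.37, adjusted p = 2.43e-06). By fold change against both tissues, the largest difference of the list was that of SH2D1B, the adaptor EAT-2. It had 133 ± 71.9 CPM in PBMC, against 3.62 ± 0.786 CPM in endometrium and 4.33 ± 1.26 CPM in corpus luteum. PRF1, the pore-forming protein perforin, averaged 72.99 ± 22.1 CPM in PBMC, against 4.04 ± 2.32 and 7.40 ± 1.17 CPM in endometrium and corpus luteum. GZMB, a granzyme, was low throughout, with 3.59 to 12.9 CPM in PBMC, 0.768 to 7.37 CPM in endometrium and 0.0635 to 1.22 CPM in corpus luteum.

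Of 30 monocyte and myeloid genes, 26 were higher in PBMC than in both tissues (against 26.2% of all genes). Of these 26, 20 were at least 4-fold higher, and 2 of the 30 genes were lower. LYZ, the lysozyme of phagocytes, had 650.2 to 3514 CPM in PBMC (median 2197), against 5.79 to 27.2 CPM in endometrium and 13.4 to 116.3 CPM in corpus luteum. Its log2 fold changes were 6.99 ± 0.66 and 6.03 ± 0.63 (adjusted p = 5.15e-09 and 2.27e-08), and 6.90 against corpus luteum without S109. FCN1, a ficolin secreted by monocytes, averaged 409 ± 192 CPM in PBMC, against 1.66 ± 1.11 CPM in endometrium and 6.98 ± 8.88 CPM in corpus luteum. ITGAM, the integrin CD11b, varied little among PBMC, with 179 to 304 CPM, and had at most 3.84 CPM in endometrium and 18.5 CPM in corpus luteum. CD14, the lipopolysaccharide co-receptor by which monocytes are usually recognized, differed much less. It had 21.8 to 91.1 CPM in PBMC (median 79.5), against 15.2 to 36.3 CPM in endometrium and 22.3 to 60.6 CPM in corpus luteum, and the groups overlapped (log2 fold changes 1.39 ± 0.31 and 0.86 ± 0.31, adjusted p = 4.57e-04 and 0.0166). CD163, a scavenger receptor of tissue macrophages and monocytes, overlapped with corpus luteum, with 37.5 to 263 CPM in PBMC, against 1.77 to 8.93 CPM in endometrium and 41.4 to 95.9 CPM in corpus luteum. The 2 lower genes were CD36, a fatty acid receptor also found on endothelium, with 0.106 to 2.43 CPM in PBMC, against 3.42 to 60.9 CPM in endometrium and 19.2 to 73.99 CPM in corpus luteum, and FCGR1A, with at most 0.626 CPM in PBMC.

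Dendritic cell genes were less uniform: 7 of 13 tested were higher in PBMC than in both tissues (against 26.2% of all genes). Of these 7, 5 were at least 4-fold higher, and 1 of the 13 was lower (against 31.8% of all genes). CCR7, the receptor that guides dendritic cells and T cells to lymph nodes, had 48.8 to 129.3 CPM in PBMC, against 0.464 to 5.31 CPM in endometrium and 0.635 to 3.09 CPM in corpus luteum. ZBTB46, a factor of dendritic cells that endothelium also expresses, had 0.822 to 6.54 CPM in PBMC, against 7.78 to 17.4 CPM in endometrium and 35.5 to 90.7 CPM in corpus luteum.

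Genes of granulocytes, platelets and red cells were also present in the PBMC libraries. Of 14 tested granulocyte genes 10 were at least 4-fold higher in PBMC than in both tissues (against 8.61% of all genes). Of the 26 in the table, 12 did not pass the filter. S100A9 and S100A12, calcium-binding proteins of neutrophils and monocytes, had 73.03 to 606 and 269 to 1615 CPM in PBMC, and at most 9.89 and 25.03 CPM in any other library. CXCR2, the chemokine receptor of neutrophils, had 21.1 to 299.5 CPM in PBMC, against 0.522 to 5.54 CPM in endometrium and 1.08 to 6.34 CPM in corpus luteum. The cathelicidin genes CATHL1 to CATHL6 and the granule genes MPO, MMP8 and CAMP, which neutrophil precursors express, did not pass the filter. LTF, the lactoferrin of granules and of glandular epithelium, was lower, with 0.174 to 4.57 CPM in PBMC, against 38.4 to 1913 CPM in endometrium and 7.92 to 169 CPM in corpus luteum.

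PF4, the platelet chemokine CXCL4, had the largest difference of the 15 genes named as highest in PBMC. It had 49.3 to 288 CPM in PBMC (median 89.7), against 0.0591 to 1.26 CPM in endometrium and 0 to 0.854 CPM in corpus luteum. The groups did not overlap (log2 fold changes 8.59 ± 0.68 and 9.08 ± 0.70, adjusted p = 3.27e-10 and 2.23e-10). Without corpus luteum S109 and endometrium S69 these were 9.29 and 9.86. TUBB1, the tubulin of the platelet rim, averaged 389 ± 173 CPM in PBMC, against 2.54 ± 1.78 CPM in endometrium and 2.02 ± 1.29 CPM in corpus luteum. PPBP and GP6, a platelet chemokine and the platelet collagen receptor, had 4.26 to 33.1 and 3.05 to 10.04 CPM in PBMC, and each had 2 to 4 reads in each of the other tissues summed over 7 libraries. In all, 11 of 16 tested platelet genes were higher in PBMC than in both tissues (against 26.2% of all genes). The 2 lower genes were MMRN1 and SELP, which endothelium also expresses. The call of SELP against corpus luteum was lost without corpus luteum S109 and endometrium S69 (log2 fold change -0.63, adjusted p = 0.159). HBB, the beta chain of haemoglobin, had 34.6 to 124.04 CPM in PBMC, against 0.0580 to 1.56 CPM in endometrium and 0 to 1.68 CPM in corpus luteum, while the alpha chain gene HBA had at most 1.02 CPM in any library and HBA1 had no read. Reads of the globin genes can be shared between similar copies. Of 15 listed red cell genes 6 passed the filter: 3 were higher in PBMC than in both tissues (against 26.2% of all genes) and 1 was lower. The lower gene was AHSP, the alpha haemoglobin stabilizing protein (log2 fold changes -2.52 and -0.73, adjusted p = 1.10e-07 and 0.0285). Its call against corpus luteum was lost without corpus luteum S109 and endometrium S69 (adjusted p = 0.0881). Summed over the lists, granulocyte genes made up 517 to 3312 CPM, platelet genes 636 to 3067 CPM and red cell genes 133 to 193 CPM of the PBMC libraries. In endometrium the same sums were 411 to 2013, 102.3 to 221 and 54.9 to 128.8 CPM, and in corpus luteum 58.02 to 327, 70.9 to 247 and 49.5 to 136 CPM. The granulocyte sums thus overlapped between PBMC and endometrium, the red cell sums between PBMC and corpus luteum, and the platelet sums with neither tissue. In endometrium ALPL and LTF of the granulocyte list had 41913 and 37346 reads, against 314 of S100A9 and 244 of CXCR2. In corpus luteum TFRC of the red cell list had 10718 reads, against 68 of HBB and 6 of ALAS2. S100A9, CXCR2 and HBB themselves did not overlap between PBMC and either tissue. Over the PBMC libraries F13A1 of the platelet list, coagulation factor XIII A, had 104459 reads, against 36809 of TUBB1 and 12924 of PF4. In the granulocyte list S100A12, S100A9 and S100A8 had 94320, 36200 and 24070 reads, against 13475 of CXCR2. TFRC of the red cell list had 6081 reads, against 6356 of HBB. These sums thus follow a few abundant genes. The part of granulocytes, platelets and red cells in the differences was not tested.

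**Figure D2:**
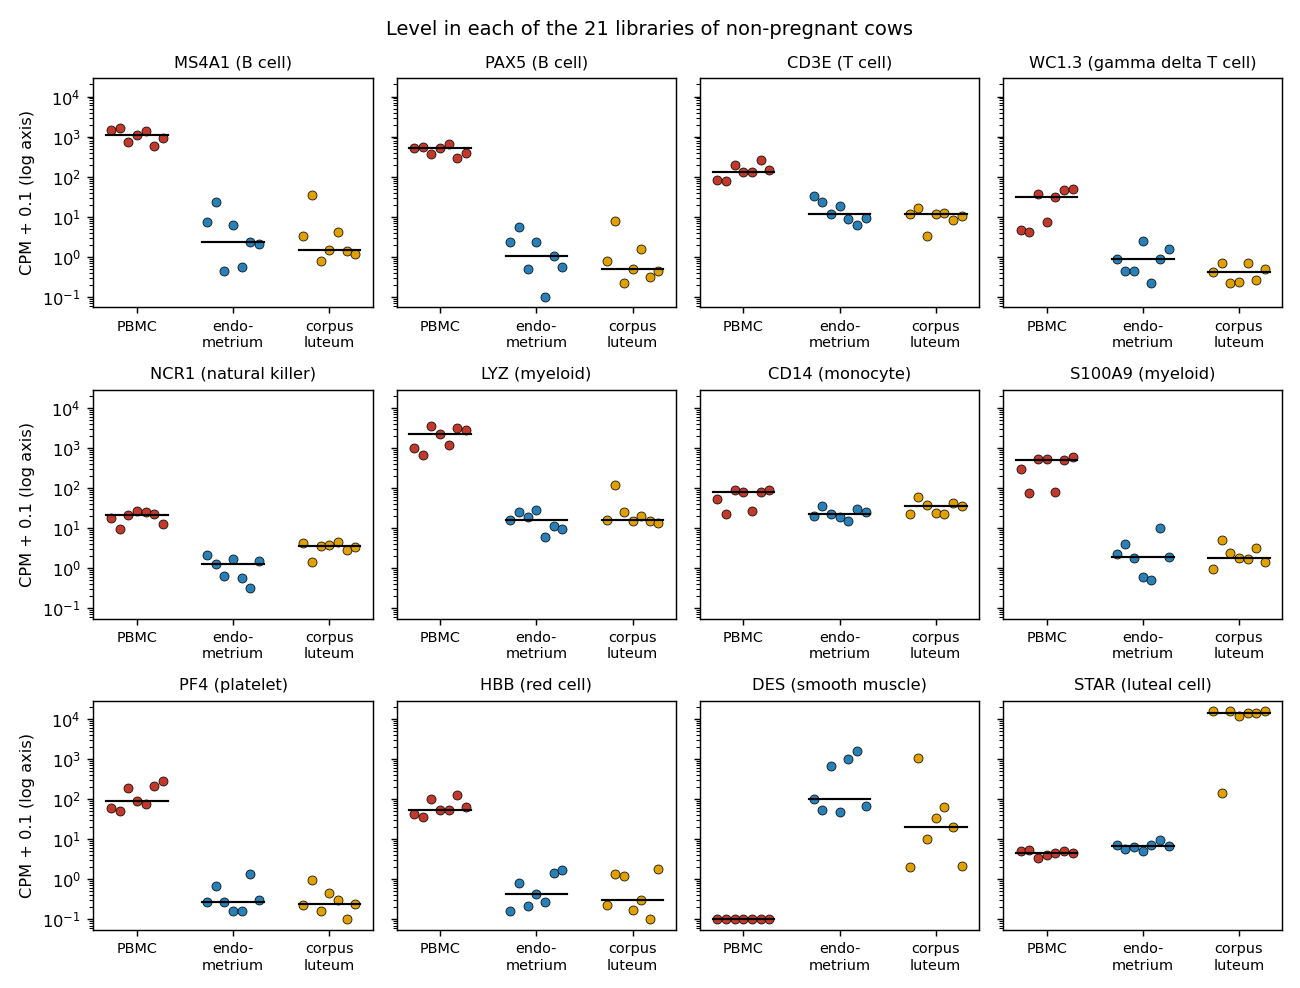
Level of 12 genes in each of the 21 libraries of non-pregnant cows, as CPM with 0.1 added on a log axis; points are libraries (PBMC, endometrium and corpus luteum, 7 each) and bars are medians. The PBMC libraries lie above all others for MS4A1, PAX5, CD3E, WC1.3, NCR1, LYZ, S100A9, PF4 and HBB but not for CD14, and the library labelled corpus luteum S109 stands far below the other corpus luteum libraries for STAR.

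All 14 tested genes of MHC class II and its assembly were at least 4-fold higher in PBMC than in both tissues, against 8.61% of all genes. These proteins present peptides to CD4 T cells and are carried by B cells, monocytes and dendritic cells. CD74, the invariant chain, had 5114 to 7167 CPM in PBMC, against 333 to 825 CPM in endometrium and 395 to 1003 CPM in corpus luteum. BOLA-DRA, the alpha chain of the bovine DR molecule, averaged 2588 ± 451 CPM in PBMC, against 161 ± 66.4 CPM in endometrium and 262 ± 53.6 CPM in corpus luteum (log2 fold changes 4.01 ± 0.24 and 3.31 ± 0.23). The largest difference was that of BOLA-DOA, a chain of the DO molecule that restrains peptide loading in B cells, with 297 ± 58.3 CPM in PBMC, against 3.67 ± 2.61 and 5.17 ± 2.83 CPM in endometrium and corpus luteum. CIITA, the switch factor of class II genes, had 287 to 460.5 CPM in PBMC and at most 33.4 CPM elsewhere. Counts of BOLA genes are uncertain because alleles and copies share reads.

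All 31 genes of leukocyte signalling and cytoskeleton were higher in PBMC than in both tissues, 30 at least 4-fold (against 8.61% of all genes). Every PBMC library lay above all others for all 31 (against 16.4% of all genes). SYK, the kinase behind the B cell receptor and Fc receptors, averaged 1045 ± 256 CPM in PBMC, against 12.4 ± 4.43 CPM in endometrium and 11.96 ± 9.33 CPM in corpus luteum. IKZF1, the lymphoid factor Ikaros, was even among PBMC, with 619 to 779.6 CPM, and had at most 21.4 CPM elsewhere. Of 17 genes of adhesion and homing, 16 were higher in PBMC than in both tissues (against 26.2% of all genes). S1PR4, a sphingosine-1-phosphate receptor of leukocytes, had 77.5 to 117.8 CPM in PBMC and at most 2.95 CPM elsewhere.

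Receptors and ligands of chemokines went in different directions. Of 20 tested receptors 15 were higher in PBMC than in both tissues and 3 were lower. Of 20 tested ligands 3 were higher and 12 were lower, and 12 of the 32 ligands did not pass the filter. Over all genes 26.2% were higher and 31.8% were lower. CCR9, the receptor of gut-homing cells, had 6.20 to 39.6 CPM in PBMC and at most 0.464 CPM elsewhere, and CXCR5, by which B cells enter follicles, had 18.3 to 32.8 CPM in PBMC and at most 1.42 CPM elsewhere. The 3 lower receptors were the atypical receptors ACKR1, ACKR2 and ACKR3, which take up chemokines without the usual signalling. ACKR3 had 0.425 to 2.79 CPM in PBMC, against 23.6 to 38.9 CPM in endometrium and 8.87 to 96.1 CPM in corpus luteum. The stromal ligand CXCL12 had 0.822 to 13.2 CPM in PBMC, against 184 to 685 CPM in endometrium and 219 to 712 CPM in corpus luteum (log2 fold changes -6.10 ± 0.57 and -6.34 ± 0.58). CX3CL1, the membrane-bound ligand fractalkine, had at most 0.228 CPM in PBMC, against 39.6 to 92.4 CPM in endometrium and 33.7 to 101.5 CPM in corpus luteum. Its receptor CX3CR1 averaged 253 CPM in PBMC, against 11.7 CPM in endometrium and 14.6 CPM in corpus luteum. The higher ligands were CXCL8, CCL16 and CCL5, with mean levels of 14.7, 55.7 and 39.5 CPM in PBMC.

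Of 30 tested transcription factors of blood cells 24 were higher in PBMC than in both tissues (against 26.2% of all genes) and GATA2 was lower. GATA2 had 0.0531 to 2.70 CPM in PBMC, against 65.9 to 114.8 CPM in endometrium and 8.03 to 25.9 CPM in corpus luteum. BCL11A, a factor of B cells and dendritic cells, averaged 103.2 ± 32.7 CPM in PBMC, against 1.15 ± 1.06 CPM in endometrium and 1.21 ± 1.04 CPM in corpus luteum. Of 29 cytokine receptors 18 were higher and 3 were lower (against 26.2% and 31.8% of all genes). The lower ones were IL15RA, IL6ST, the shared chain of the interleukin 6 family, and IL11RA. IL2RG, the chain shared by receptors of the interleukin 2 family, had 240.0 to 378 CPM in PBMC and at most 16.6 CPM elsewhere. IL6ST had 41.8 to 124.7 CPM in PBMC, against 209 to 365 CPM in endometrium and 367 to 802 CPM in corpus luteum. Of 9 toll-like receptors 7 were higher in PBMC than in both tissues (against 26.2% of all genes). TLR8, which senses single-stranded RNA, had 56.6 to 184 CPM in PBMC, against 0.696 to 1.95 CPM in endometrium and 2.03 to 6.71 CPM in corpus luteum. TLR3, which senses double-stranded RNA, was lower, with 8.97 to 25.02 CPM in PBMC, against 18.7 to 45.5 CPM in endometrium and 36.3 to 60.5 CPM in corpus luteum.

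**Figure D3:**
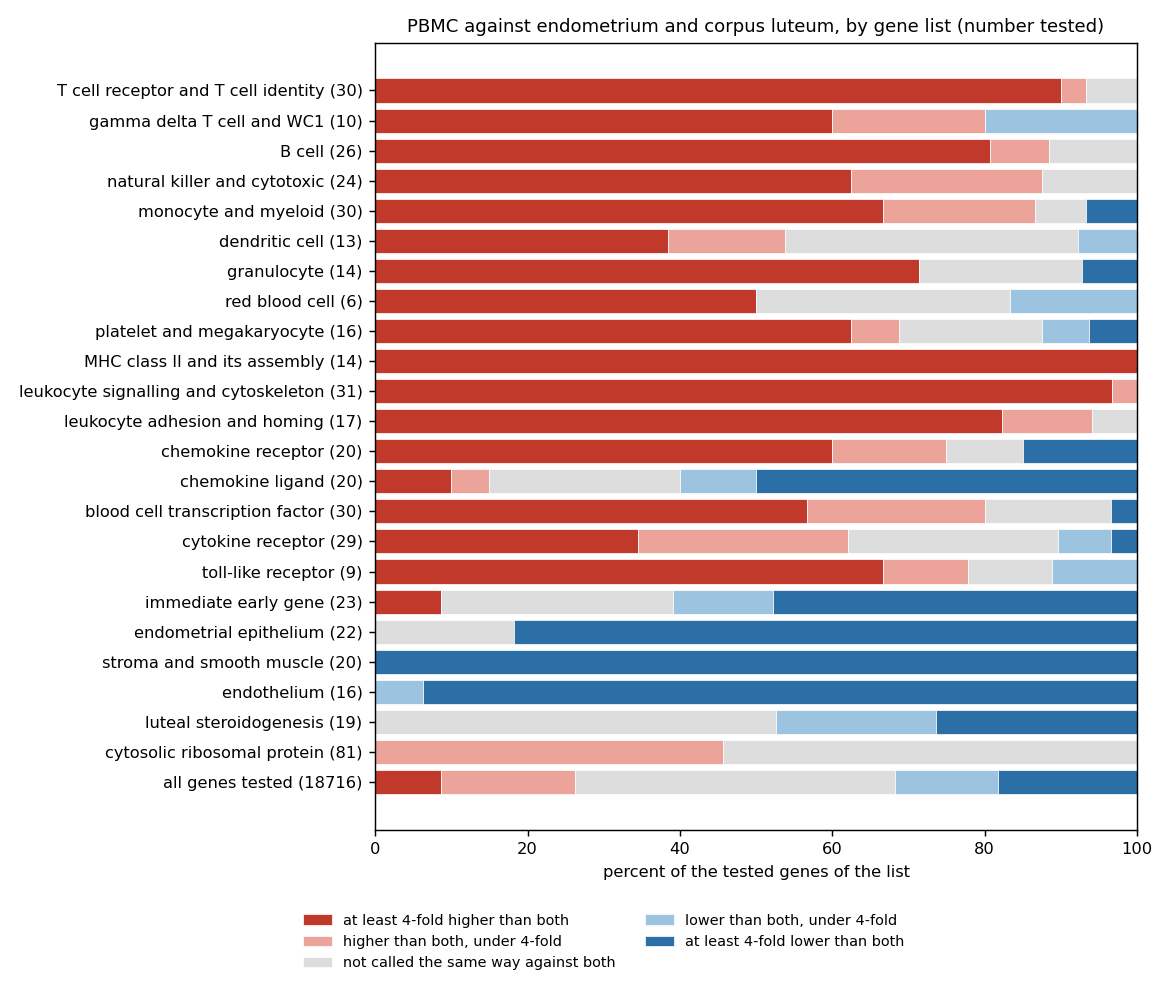
Percent of the tested genes of each list that were higher (red) or lower (blue) in PBMC than in both endometrium and corpus luteum, with the number tested in parentheses; dark shades are at least 4-fold. The T cell, B cell, MHC class II and signalling lists are mostly red, the red blood cell list is red for 3 of 6 genes, those of epithelium, stroma and endothelium are mostly blue, and the bottom bar gives all 18716 genes tested.

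Of 23 immediate early genes, which are switched on within minutes of a stimulus, 14 were lower in PBMC than in both tissues (against 31.8% of all genes) and 2 were higher. FOS had 7.03 to 50.3 CPM in PBMC, against 17.8 to 4257 CPM in endometrium and 13.04 to 2102 CPM in corpus luteum, so the lowest tissue libraries overlapped with PBMC. EGR1 had 2.39 to 17.8 CPM in PBMC and did not overlap with endometrium (32.96 to 3039 CPM) or corpus luteum (72.4 to 1163 CPM). Endometrium S69 and S65 had 4257 and 3152 CPM of FOS and 22065 and 16867 summed CPM of the list, against 1302 to 2154 in the other 5 endometrium libraries, and corpus luteum S109 had 9224. The number of lower genes was 8 without corpus luteum S109, 9 without S109 and endometrium S69, and 10 without these and endometrium S65, where 5 genes were higher. With all libraries MYC and the phosphatase DUSP2 were the 2 higher genes, with 255 ± 86.9 and 37.5 ± 23.8 CPM in PBMC. Genes of cytosolic ribosomal proteins differed by little. Of 81 tested, 67 were higher in PBMC than in endometrium (against 34% of all genes). Of the 81, 37 were higher than in both tissues (against 26.2% of all genes), and none was higher by 4-fold. The median log2 fold change was 0.71 against endometrium and 0.37 against corpus luteum. The count higher than in both was 52 with library totals in place of TMM factors and 55 without corpus luteum S109 and endometrium S69. It was 24 without PBMC S87, corpus luteum S108 or corpus luteum S115, each left out alone. Without the filter on low counts it was 22. Without PBMC S87, 4832 of all 19205 genes tested were higher than in both tissues. In N cows of E2, 34 of the 81 were higher than in both tissues and 1 was lower. In EM cows of E2, 1 of the 81 was higher and 0 were lower.

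Genes of the solid tissues were low or absent in PBMC. All 20 listed genes of stroma and smooth muscle and all 16 of endothelium were lower in PBMC than in both tissues. So were 18 of 22 genes of endometrial epithelium, against 31.8% of all genes. Of 19 luteal genes, all 19 were lower than in corpus luteum (against 42.2% of all genes) and 9 were lower than in endometrium (against 40.3%). The 5 genes named as lowest were IGFBP5, an insulin-like growth factor binding protein, SPARCL1, a matrix protein, CDH11, a cadherin of stroma, TC2N and DES. No read of IGFBP5, CDH11, TC2N or DES was found in the 7 PBMC libraries together. IGFBP5 had 66.3 to 1976 CPM in endometrium and 305 to 1251 CPM in corpus luteum. With a limit of 3 reads over the PBMC libraries, IGFBP5 was at least 15700-fold lower in PBMC than the mean of endometrium. Against the mean of corpus luteum it was at least 20771-fold lower. CDH11 was at least 6954-fold lower than the mean of endometrium and at least 8202-fold lower than the mean of corpus luteum by the same limit. TC2N had 71.3 to 357 CPM in endometrium and 875 to 1044 CPM in corpus luteum, except 41.3 CPM in the library labelled corpus luteum S109. Limits of this kind cover counting error only. Not every luteal gene set PBMC apart from endometrium: STAR had 3.34 to 5.16 CPM in PBMC and 4.84 to 9.26 CPM in endometrium (log2 fold change -0.59 ± 0.50, adjusted p = 0.291), and SCARB1, the receptor of high density lipoprotein, had 40.1 to 87 CPM in PBMC and 32.7 to 90.9 CPM in endometrium.

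The 7 PBMC libraries differed in their makeup, which is given as values with no test. Summed CPM of the B cell list ranged from 5534 in S93 to 9834 in S87. Summed CPM of the monocyte and myeloid list ranged the other way, from 3811 in S87 to 10750.1 in S93. S87 also had the lowest sums of T cell genes (1273 CPM), natural killer genes (437 CPM), gamma delta and WC1 genes (39.2 CPM), granulocyte genes (517 CPM) and platelet genes (636 CPM). S104 had the highest sums of T cell genes (3092 CPM), natural killer genes (999 CPM), gamma delta and WC1 genes (312 CPM) and platelet genes (3067 CPM). The highest library exceeded the lowest 1.78 times for B cell genes, 2.43 times for T cell genes, 2.82 times for myeloid genes, 4.82 times for platelet genes, 6.41 times for granulocyte genes and 7.96 times for gamma delta and WC1 genes. The ratio was 1.23 for signalling and cytoskeleton, 1.33 for MHC class II, 2.18 for cytokine receptors, 2.29 for adhesion and homing and 3.87 for chemokine receptors. The gamma delta and WC1 sum includes SOX13 and ZBTB16, which were lower in PBMC than in both tissues. In endometrium this sum was 241 to 427 CPM, against 39.2 to 312 CPM in PBMC. All sums are shares of one total, so a higher share of one cell type lowers the others. Each sum follows the most abundant genes of its list and is not a count of cells.

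**Figure D4:**
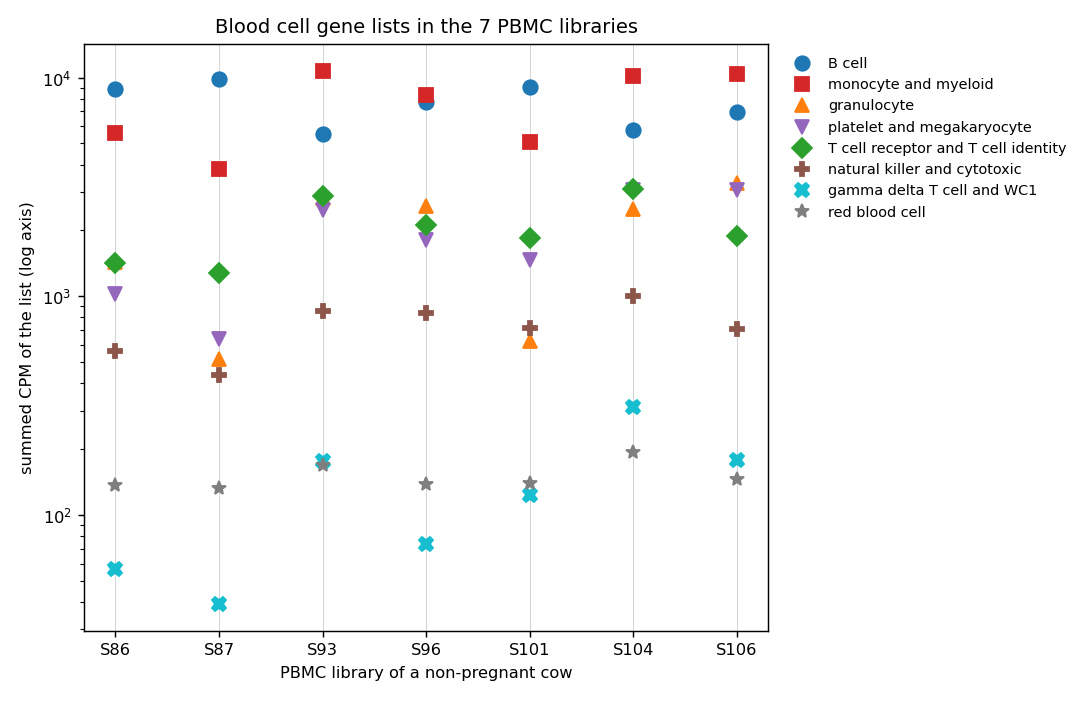
Summed CPM of 8 blood cell gene lists (log axis) in each of the 7 PBMC libraries of non-pregnant cows. B cell genes are highest in S87 (9834 CPM) where myeloid genes are lowest (3811 CPM), and gamma delta and WC1 genes range from 39.2 CPM in S87 to 312 CPM in S104.

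The 5 genes with a symbol, at least 20 mean CPM in PBMC and the largest coefficient of variation among the PBMC libraries were RGS2_1, RN7SL1, CD163L1, RGS2_2 and PPP1R1B. CD163L1 had 90.8 CPM in S104, 4.56 CPM in S87 and 5.47 CPM in S86. The rows RGS2_1 and RGS2_2 carry the name of 1 regulator of G protein signalling. In S93 they had 92.6 and 12.3 CPM, and in S104 they had 0 and 109.7 CPM. RN7SL1, the RNA of the signal recognition particle, had 112.6 CPM in S101 and 79.4 CPM in S86, and 2.84 to 15.2 CPM in the other 5 PBMC libraries. PPP1R1B had 4.50 to 171 CPM in PBMC, against 5.19 to 47.7 CPM in endometrium and 0.112 to 31.2 CPM in corpus luteum. None of these 5 except CD163L1 was called higher or lower than in both tissues.

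Genes without a standard symbol were common among those highest in PBMC. Of the 1611 genes at least 4-fold higher, 721 (44.8%) are named by a LOC number, against 23.9% of all genes tested. The 5 of them with the largest differences included LOC112442068, described in the deposited table as an immunoglobulin lambda variable gene, with 29.9 to 159 CPM in PBMC and at most 2.32 CPM elsewhere. LOC112447353, described as an adhesion G protein-coupled receptor E4P, had 28.3 to 52.3 CPM in PBMC and at most 0.915 CPM elsewhere. LOC100299976, described as a pseudogene of UVRAG, had 47.8 to 183 CPM in PBMC and at most 1.298 CPM elsewhere. LOC112443438 and LOC104976009 are uncharacterized, with means of 134 ± 47.9 and 114.2 ± 54.6 CPM in PBMC and at most 3.11 CPM elsewhere. By the descriptions in the table, a grouping chosen after the values were seen, 16 of 17 tested leukocyte immunoglobulin-like receptor genes, 10 of 11 GTPase IMAP genes, all 5 Fc receptor-like genes and 17 of 26 T cell receptor genes were at least 4-fold higher in PBMC, but only 12 of 43 immunoglobulin genes, beside 8.61% of all genes.

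Genes high in PBMC were often neighbours. RefSeq positions (assembly ARS-UCD2.0, used for gene order only) were found for 16928 of the 18716 genes tested and for 1300 of the 1611, which is 80.7%. Of these 1300 genes 45.5% stood next to another of them in the order of tested genes, and of the other tested genes 11.2% stood next to one. There were 35 runs of at least 4 such genes, the longest with 9. The runs of 9 held the class II genes from BOLA-DQA2 to BOLA-DRA and the GIMAP genes from GIMAP4 on. Other runs held the Fc receptor-like genes FCRL1, FCRL3, FCRL4 and FCRL5, the WC1 genes with CD163L1, the genes S100A7, S100A8, S100A12 and S100A9, and the signalling lymphocyte genes SLAMF7, CD48, SLAMF1, CD84 and SLAMF6. Neighbours of 1 family can share reads, so they are not independent measurements.

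The same comparison was made in the pregnant cows of E2, whose libraries are separate from those above. In N cows (9 PBMC libraries) 1562 genes were at least 4-fold higher in PBMC than in both tissues, which is 8.38% of the genes tested. Of the 1611 genes found in NP cows 1550 were tested in N cows and 1392 (89.8%) were called by the same rule, which is 89.1% of the genes called there. Of the 3405 lower genes 93.2% of those tested were called lower there by the same rule. In EM cows (6 PBMC libraries) 1376 genes were called higher (7.32%), among them 1236 of the 1561 tested (79.2%). Endometrium S83 of an EM cow held 809 CPM of MS4A1 and 230.5 CPM of FCRL3, against at most 12.3 and 0.832 CPM in the other 5 EM endometrium libraries, while its level of CD3E was 8.74 CPM. The library labelled corpus luteum S121 of an EM cow held 2381 CPM of STAR and 1269 CPM of S100A12, against 5042 to 18215 and 4.06 to 73.04 CPM in the other 5. Without these 2 libraries, an alternative chosen after seeing the data, 1439 of 1599 genes (89.99%) were called higher by the same rule in EM cows, which is 85.4% of the genes called there, beside a share of 8.83% called among all genes tested. The log2 fold change of MS4A1 over endometrium in EM cows was 2.98 ± 1.34 with all libraries (adjusted p = 0.0612), 7.97 ± 0.87 without both (adjusted p = 5.91e-07) and 7.98 ± 0.86 without endometrium S83 alone (adjusted p = 4.46e-07).

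In E1, where only PBMC (5 libraries) and endometrium (7 libraries) of NP cows were compared and another annotation was used, 620 of the 1611 genes could be matched by symbol and tested. Of these 507 (81.8%) were at least 4-fold higher in PBMC than in endometrium, against 9.7% of the genes tested. The makeup of the E1 PBMC libraries differed in level, which was not tested because the tables were made and scaled separately. CD3E had 355 to 597 CPM in E1 and 78.7 to 255 CPM in E2. PF4 and HBB had 724 to 2945 and 1219.5 to 3057 CPM in PBMC of E1, above all 7 PBMC libraries of NP cows in E2. CD14 lay lower in PBMC than in endometrium in E1, with 10.7 to 19.3 CPM in PBMC, against 12.6 to 299 CPM in endometrium (log2 fold change -2.13 ± 0.77, adjusted p = 0.0227). MS4A1 had 65.6 to 397 CPM in PBMC of E1, against 0.187 to 7.28 CPM in endometrium.

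**Figure D5:**
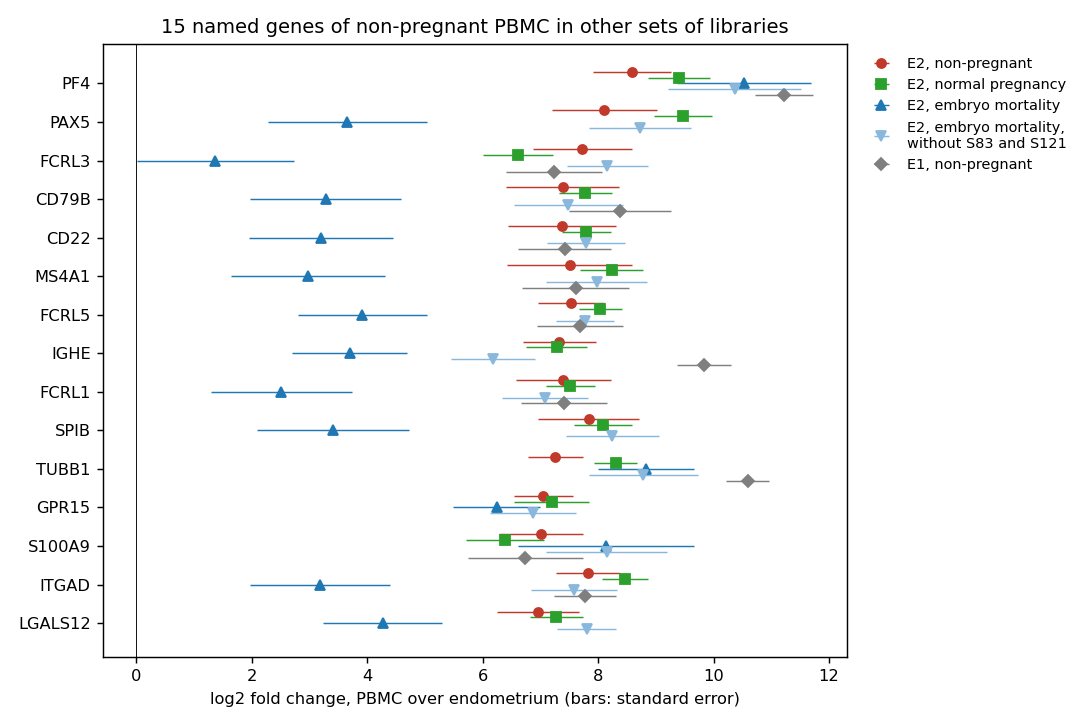
Log2 fold change of PBMC over endometrium with its standard error for the 15 genes named as highest in PBMC of non-pregnant cows, in NP, N and EM cows of E2, in EM cows without endometrium S83 and corpus luteum S121, and in NP cows of E1; a missing symbol is a gene not tested there. In EM cows the B cell genes lie lower, at 2.98 for MS4A1, until the 2 libraries are left out (7.97), while PF4 and TUBB1 do not shift in this way.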

How the data were processed

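Gene-level raw counts were deposited by the authors for each library. They came from stranded mRNA libraries read as 75 bp single-end (E2) or 100 bp paired-end (E1) fragments, with ARS-UCD 1.2 as the E2 build per the labels, by a counting program not given in the sources used here. After removing 28 duplicated names from 35186 E2 rows, the 21 NP libraries were joined by name. In R 4.3.3, edgeR 4.0.16 was used with filterByExpr (minimum 10), TMM factors and 1 quasi-likelihood model of all 3 tissues. Benjamini-Hochberg adjustment ran over the 18716 genes. SE equals |log2 fold change| over the root of F. CPM used the same factors. Alternatives were RLE factors, totals alone, other filters, robust spread, DESeq2 1.42.0, separate tissue pairs and omission of single libraries. The settings without corpus luteum S109 and endometrium S69, with endometrium S65 left out as well, and without EM endometrium S83, alone or with EM corpus luteum S121, were added after seeing the data. The comparison and the 23 gene lists were chosen with earlier results of these data known, so the lists are not independent support. Named genes were the 15 symbols with the largest smaller fold change (at least 20 mean CPM in PBMC, no overlap), the mirrored 5 lowest, 5 LOC genes, up to 4 higher and 2 lower per list, the 5 most variable, and fixed markers with all gamma delta genes. Other genes named were picked from the lists after their values were seen. Where a group had no read, the mean of the other tissue was set against 3 reads over the group. Replicates differed beyond sampling noise (smallest chi-square per degree of freedom 14.08). The test was checked on simulated counts with PBMC changed against both tissues. It called 48% of log2 changes of 1 and 90% of log2 changes of 2, with 0 false calls. Samples without a group label, 2 in number, were left out. In E2 the name endometrium S77 was carried by 1 EM and 1 N library. Each was assigned only by the group under which it was deposited, and both were used in the comparisons of pregnant cows. Some genes are not reported here.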

Additional observations from a re-analysis of the deposited data

Results flagged for a closer look

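Chance flags about 1 in 20 groups, and 45 groups of 7 libraries were looked at, of which 9 had a library far from the other 6. Among PBMC libraries, S86 had a high total of 18285148 counts, and S106 had 46.8 summed CPM of endometrial epithelium genes, where the other 6 libraries had 23.2 to 27.6 CPM. Among endometrium libraries, S69 had 7.51% of counts on mitochondrial genes, 2013 summed CPM of granulocyte genes, of which LTF alone made up 1913 CPM, and 56605 summed CPM of stroma and smooth muscle genes. Endometrium S70 had 427 summed CPM of the gamma delta and WC1 list, of which ZBTB16 made up 328 CPM. The library labelled corpus luteum S109 had 900.0 summed CPM of luteal genes, where the median of the corpus luteum libraries was 47364 CPM. It also had 579 summed CPM of B cell genes (median 119.4) and 247 of platelet genes (median 112.9). These values are given with no explanation, and results without S109 and S69 stand in the report.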

How the results depend on the processing

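No paired analysis was possible because the labels tie no library to a cow and the tissues share no replicate numbers. The numbers of the 7 corpus luteum libraries run 22 above those of the 7 PBMC libraries, which may mark the same cows, but no label says so and the offset was not used. The main counts were 1611 genes at least 4-fold higher and 3405 lower in PBMC than in both tissues, 13922 different from endometrium and 14615 different from corpus luteum. With at least 10 counts in every library, which left 12022 genes and removes genes absent from a tissue, they were 638, 683, 8477 and 9136. At any fold, 4899 genes were higher and 5949 lower. No other setting moved these 4 counts by over 1.5 times, and leaving out each library gave 1609 to 1695 higher genes, 3391 to 3541 or, without corpus luteum S109, 3316 lower genes, 13779 to 14728 different from endometrium and 14464 to 15117 different from corpus luteum. With library totals in place of TMM factors the median log2 fold change over all genes was -0.26 against endometrium and 0.13 against corpus luteum, beside -0.09 and -0.12. Among 7138 fold changes of named genes under the alternatives, 7082 kept direction and call, 45 lost and 8 gained the call, and 3 reversed, none of them called: RGS2_1 against corpus luteum without PBMC S93 (-0.11), and RN7SL1 against corpus luteum without PBMC S86 (-0.19) or S101 (-0.54). Without single libraries these log2 fold changes ranged from -0.11 to 1.104 for RGS2_1 and from -0.54 to 1.52 for RN7SL1. The calls lost belonged to ZBTB16, AHSP, SELP, RN7SL1 and TRGC4. Genes under about 1 CPM in every tissue are limited by depth.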
